A study of Mus musculus with 9 samples.

Results

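The genes described here are the BCL2 family, the caspases and the death receptors, the gene set that carries out and restrains apoptosis. They were taken by symbol from a list of 38 members, with no threshold on their values. Of these, 36 were found among the 18504 genes of the expression table. Bcl2a1d and Casp1 were not analysed here. By role, the 36 are 4 anti-apoptotic BCL2 proteins, 3 effector BCL2 proteins, 8 BH3-only proteins, 4 caspases of apoptosis, Casp12, 6 apoptosome and mitochondrial proteins, 4 caspase or receptor inhibitors, and 6 death receptors or their adaptors.

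Apoptosis can start inside the cell or at its surface. In the mitochondrial pathway, BH3-only proteins engage the anti-apoptotic BCL2 proteins and the effectors BAX and BAK, the effectors open the outer mitochondrial membrane, and released cytochrome c lets APAF1 activate caspase-9. In the receptor pathway, ligand-bound death receptors recruit FADD and caspase-8, which FLIP (Cflar) holds in check, while the inhibitor of apoptosis proteins (IAPs) act on caspases and on receptor signalling further down. Mouse embryonic stem (ES) cells are known to be poised to die on stress or on failed differentiation, and Yap1, the coactivator restrained by the Hippo kinases, acts through the TEAD DNA-binding proteins.

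The material was J1, a mouse ES cell line (129S4/SvJae strain, passage 5 to 7), and its polyadenylated RNA was sequenced in 9 libraries of 8 groups. A library that overexpressed Yap1 (Yap1_OE) had BirA as its control, and Yap1_KO1 and Yap1_KO2, labelled as knockouts, had ESC. A knockdown library (Yap1_KD1) had its own control, and cells differentiated with the knockdown had differentiated control cells. The sources used here do not give how or for how long cells were differentiated, which edit or construct was used, or whether the knockout-labelled pair are separate clones. Apart from the knockout-labelled pair each group is a single library, so most comparisons lack replicates and carry no p-value. The interval printed with a ratio is a 95% exact interval for the estimated fragments and covers counting error only.

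Values are FPKM, fragments scaled by transcript length and library depth. Recovered depths lay between 9.19 M (mega) fragments, in Yap1_KO1, and 22.3 M, in the control of the knockdown, where 1 FPKM over 2 kb of transcript equals about 18.4 and 44.7 fragments. Yap1 itself stood at 139 FPKM in Yap1_OE against 46.7 in BirA, at 4.55 in the knockdown against 37.4, and at 12.5 in the differentiated knockdown against 78.0. The libraries labelled Yap1_KO1 and Yap1_KO2 held 57.3 and 27.6 FPKM against 65.4 in ESC, so RNA of the gene remained in both. Summed pluripotency markers (8 genes such as Pou5f1 and Nanog) ran from 2144 to 2893 FPKM in the 7 undifferentiated libraries, against 1256 FPKM in differentiated control cells and 1672 with the knockdown, where 7 of 8 were higher than in the control. Differentiation markers (12 genes) ran from 13.2 to 199.6 FPKM undifferentiated, against 1436 in differentiated control cells and 209 with the knockdown. The keratins Krt8 and Krt18 made up most of both differentiated sums and of the 199.6 FPKM, which was in Yap1_OE (63.4 and 129.6 FPKM). Of the immune cell list Ptprc, Lyz2 and Csf1r, and of the feeder fibroblast list Dcn, Lum and Postn, were at or near 0 throughout, while Cd68 ran from 10.9 to 38.9, Laptm5 from 6.895 to 57.9 and Thy1 from 3.40 to 39.2 FPKM, and Col1a1 was at 5.74 FPKM in the differentiated control against 0.444 with the knockdown. The immune list summed to 49.4 to 78.5 FPKM undifferentiated, 18.5 in differentiated control cells and 26.6 with the knockdown, and the feeder list to 7.73 to 40.6, 11.6 and 9.55. Their part in the results was not tested.

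The promoters of the members were searched for GGAATG on either strand (CATTCC on the other), the core letters that TEAD proteins bind. RefSeq windows of GRCm38.p6, from 250 bases before to 50 bases after a start, were available for 31 members in 43 windows. The letters occurred in 4 of the 43 windows (9.3%), and in 14.7% of all 32851 windows. The windows with a match belonged to Bcl2l1, Mcl1, Hrk and Ripk1, for Bcl2l1 in 1 of its 3 and for Ripk1 in 1 of its 2. A stretch around the match, which ends before the start, is shown for the main anti-apoptotic genes of the set and for the receptor adaptor kinase, since their RNA levels differ in order across the libraries described next. The stretches are written 5′ to 3′ on the gene's strand with the match in capitals, at chr2:152831774-152831893 (minus strand) for Bcl2l1, chr3:95658471-95658584 (plus strand) for Mcl1 and chr13:34002180-34002299 (plus strand) for Ripk1.
Bcl2l1: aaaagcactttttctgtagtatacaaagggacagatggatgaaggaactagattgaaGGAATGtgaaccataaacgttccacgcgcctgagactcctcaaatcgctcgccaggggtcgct
Mcl1: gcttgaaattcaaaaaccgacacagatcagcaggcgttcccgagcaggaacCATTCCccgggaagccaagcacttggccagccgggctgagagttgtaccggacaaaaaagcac
Ripk1: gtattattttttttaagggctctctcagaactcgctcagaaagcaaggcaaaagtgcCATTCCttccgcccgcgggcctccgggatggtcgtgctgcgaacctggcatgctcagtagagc
The match starts 108 bases before the start in Bcl2l1, 199 in Mcl1 and 126 in Ripk1. For Mcl1, unlike Bcl2l1 and Ripk1, the last bases of the window were not found in an annotated transcript, so its start is uncertain. A match describes the letters of the window and is not a measured binding site.

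The members were compared first between differentiated cells with and without the Yap1 knockdown. Death receptor and adaptor genes were lower in the knockdown: all 5 members tested lay below the control, as did Casp8, Cflar and Birc3. This did not extend to every gene near that pathway. The IAP gene Birc2 lay above the control (log2 ratio 0.12), as did the BH3-only gene Bid (0.22). BCL2 members of both signs were spread on either side, with Bcl2l1, Bok and Bik lower, and Bax, Bcl2l2 and Bmf higher. Of the 33 members at 1 FPKM or more in either library, 22 were lower and 11 higher, with a median log2 ratio of -0.086. Over all genes tested, 51.5% were lower and the median was -0.011. At least 2-fold, on the log2(FPKM + 1) scale used for every count and log2 ratio here, 1 member was lower (Bik) and 0 were higher, where 4.77% of all genes were lower and 1.71% higher. At 1.5-fold, 6 were lower (Bik, Htra2, Birc3, Tnfrsf10b, Tnfrsf1a and Tradd, 18.2%) against 10.9% of all genes, and 2 were higher (Bmf and Hrk) against 5.49%.

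**Figure D1:**
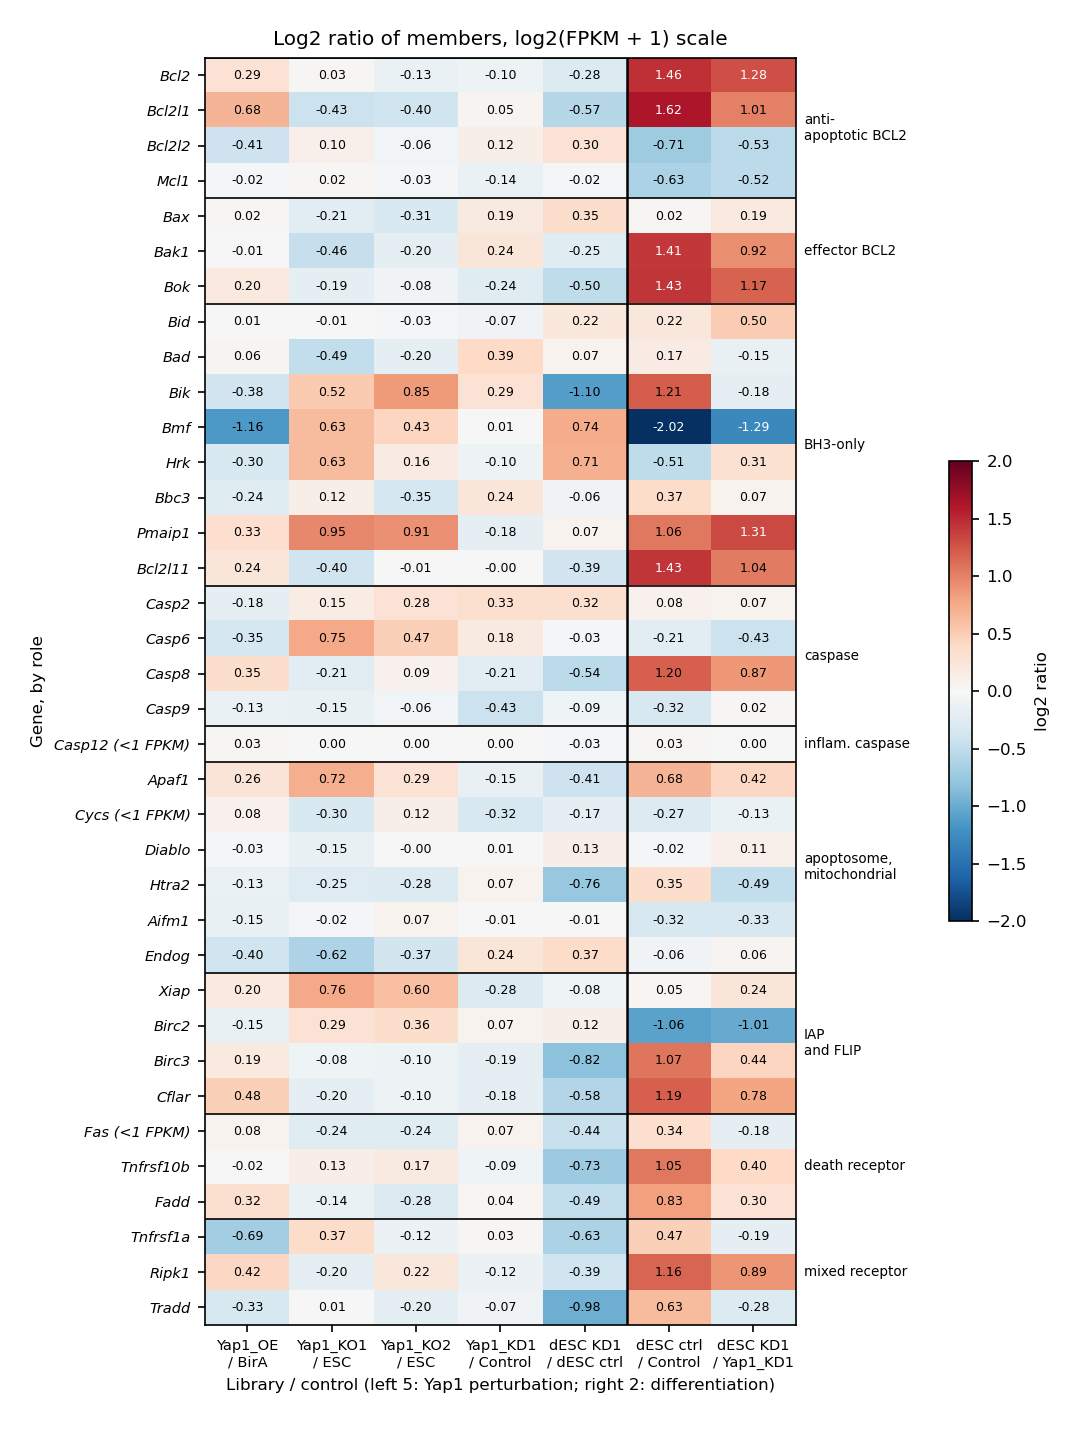
Log2 ratio, on the log2(FPKM + 1) scale, of each of the 36 members (rows, grouped by role) in 5 comparisons of a Yap1 perturbation with its control and 2 of differentiated with undifferentiated cells (columns). Red is higher and blue lower than the control, genes under 1 FPKM in all libraries are marked, and the receptor rows at the bottom are blue in the differentiated knockdown and red in the differentiated control.

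Bcl2l1, which encodes BCL-XL and protects the outer mitochondrial membrane, stood at 18.1 FPKM in BirA and 29.5 in Yap1_OE, at 24.0 in ESC, 17.5 in Yap1_KO1 and 17.97 in Yap1_KO2, and at 12.9 in the knockdown control and 13.4 in the knockdown. It was at 41.8 FPKM in differentiated control cells and 27.9 in the differentiated knockdown. The differentiated control is the highest of the 9 libraries, and the differentiated knockdown lies below Yap1_OE, within the undifferentiated range. The FPKM ratio of the knockdown to its control was 0.668 in differentiated cells (0.618 to 0.722) and 1.04 in ES cells (0.930 to 1.15). In Yap1_OE it was 1.63 (1.49 to 1.79). Both knockout-labelled libraries lay below ESC, at 0.729 (0.648 to 0.821) and 0.750 (0.674 to 0.833). The undifferentiated controls themselves ranged from 12.9 to 24.0 FPKM.

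Mcl1, the short-lived survival protein that ES cells hold at a high level, was the most abundant anti-apoptotic member. It was at 172 FPKM in BirA and 170 in Yap1_OE, at 125, 127 and 123 in ESC and the libraries labelled Yap1_KO1 and Yap1_KO2, at 163 in the knockdown control and 148 in the knockdown, and at 104 and 103 in the differentiated control and knockdown. Each perturbed library lay close to its own control. The ratio in the differentiated knockdown was 0.984 (0.947 to 1.02), and the widest departure from 1 was 0.909 (0.885 to 0.934) in the knockdown in ES cells. The 2 differentiated libraries were the lowest of the 9.

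Bcl2, the founding member of the family, was near the limit of detection in ES cells and appeared on differentiation. It was at 0.167 FPKM in BirA, 0.422 in Yap1_OE, 0.110 in ESC, 0.132 in Yap1_KO1, 0.0106 in Yap1_KO2, 0.0965 in the knockdown control and 0.0225 in the knockdown. Differentiated control cells held 2.02 FPKM and those with the knockdown 1.49. These differentiated values rest on about 279 and 141 fragments, and the undifferentiated ones on 1 to 66. The ratio of the differentiated knockdown to its control was 0.740 (0.601 to 0.910). In undifferentiated cells, below the 1 FPKM filter, the ratio was 2.53 in Yap1_OE (1.498 to 4.70) and 0.233 in the knockdown (0.0461 to 0.877, from 3 against 15 fragments). Yap1_KO1 and Yap1_KO2 fell on opposite sides of ESC, at 1.205 (0.448 to 3.11) and 0.0968 (0.00228 to 0.660, from 1 against 12 fragments). Bcl2l2, which encodes BCL-W, went the other way from Bcl2 in the differentiated knockdown and in Yap1_OE. Its levels were 4.87 and 3.41 FPKM in BirA and Yap1_OE, 3.74, 4.09 and 3.54 in ESC and the libraries labelled Yap1_KO1 and Yap1_KO2, 5.80 and 6.37 in the knockdown control and knockdown, and 3.15 and 4.09 in the differentiated pair. The ratio was 1.30 in the differentiated knockdown (1.07 to 1.58) and 0.700 in Yap1_OE (0.591 to 0.830). Its exons overlap those of another annotated gene on the same strand, so its values are uncertain.

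**Figure D2:**
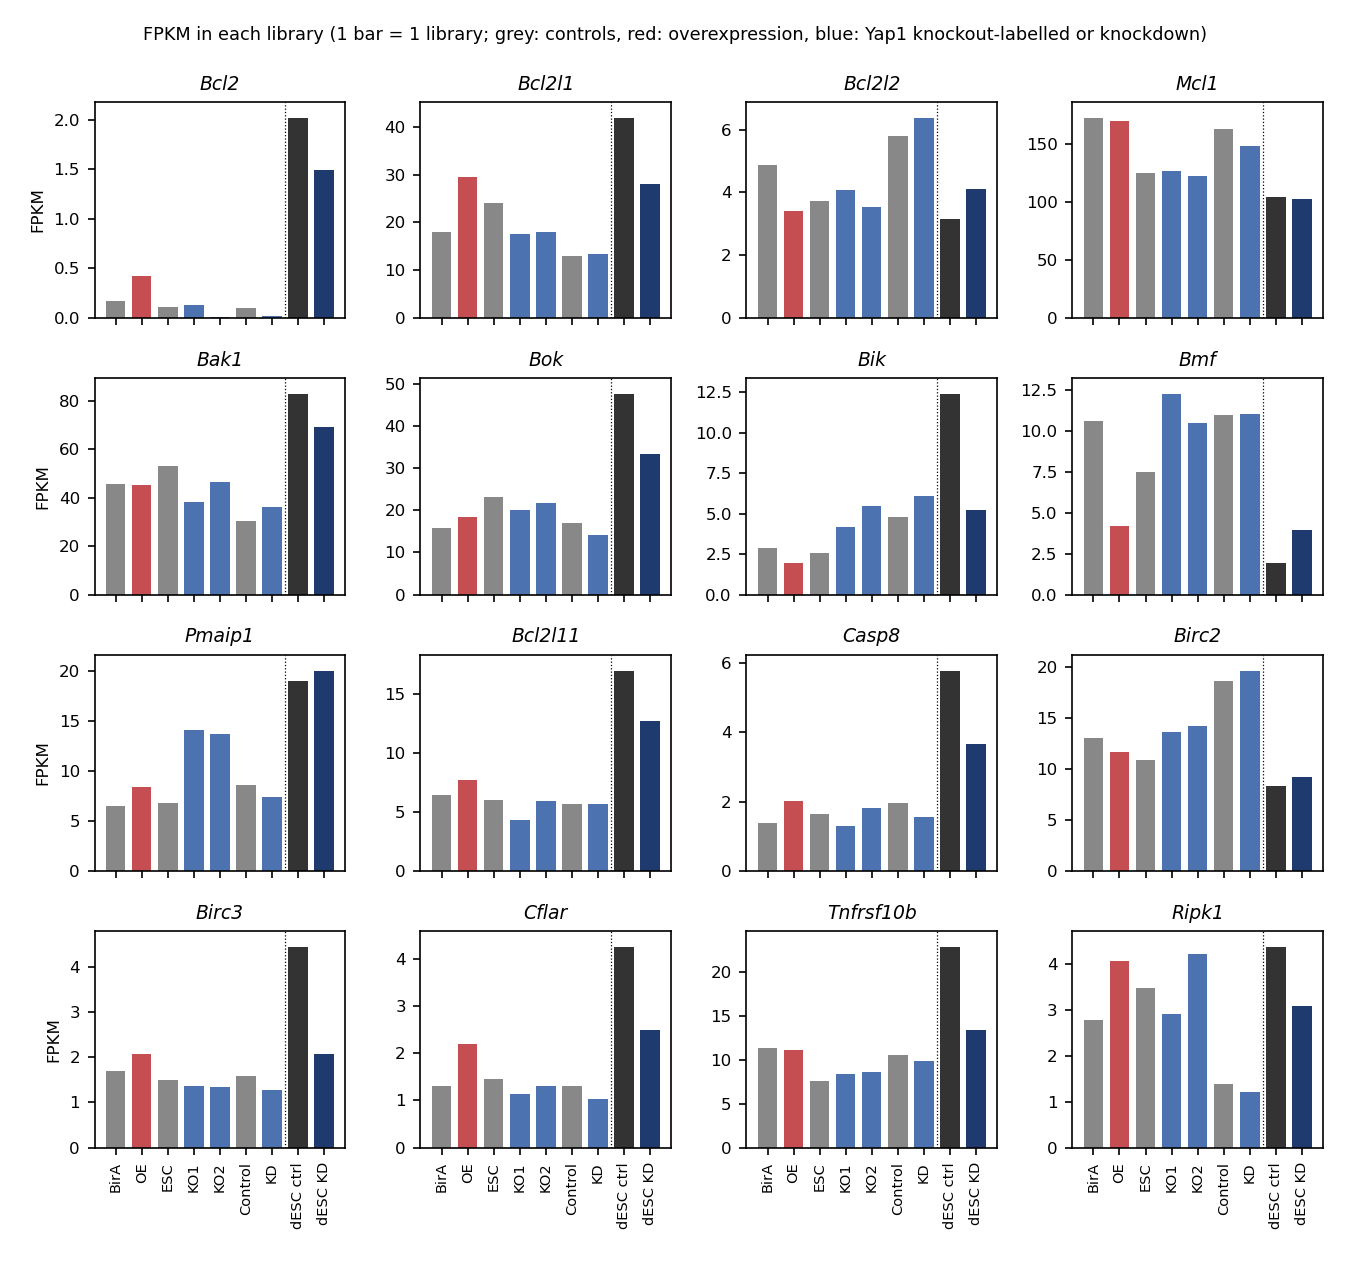
FPKM of selected members in each of the 9 libraries, with controls in grey, overexpression in red and the knockout-labelled and knockdown libraries in blue, the differentiated pair in the darker shades. Each bar is 1 library and has no error bar, each panel starts at 0, and Bcl2l1 runs from 12.9 FPKM in the knockdown control to 41.8 in the differentiated control.

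Among the effectors, which form the pore in the outer membrane, Bax lay well above the others in every library, at 287 to 367 FPKM undifferentiated, and at 314 and 400 in the differentiated control and knockdown. Its ratio in the differentiated knockdown was 1.28 (1.23 to 1.32). Bax was singled out after its values were seen. Bak1 was at 45.6 FPKM in BirA, 45.2 in Yap1_OE, 53.2 in ESC, 38.3 in Yap1_KO1, 46.3 in Yap1_KO2, 30.4 in the knockdown control and 36.1 in the knockdown. Differentiated control cells had 82.5 FPKM and knockdown cells 69.2, both above all 7 undifferentiated libraries. The knockdown ratio for Bak1 was 0.839 (0.796 to 0.885) in differentiated cells and 1.19 (1.10 to 1.27) in ES cells. Bok, a related effector that can act without BAX and BAK, was at 15.8 and 18.3 FPKM in BirA and Yap1_OE, 23.1, 20.2 and 21.8 in ESC and the libraries labelled Yap1_KO1 and Yap1_KO2, and 17.0 and 14.2 in the knockdown control and knockdown. In differentiated cells Bok was at 47.5 FPKM in the control and 33.3 in the knockdown, a ratio of 0.701 (0.637 to 0.770). So 1 effector was higher and 2 were lower in the differentiated knockdown.

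The BH3-only genes differed widely among themselves, with log2 ratios in the differentiated knockdown from -1.10 (Bik) to 0.74 (Bmf). Bik, a BH3-only protein of the endoplasmic reticulum, was at 2.88 FPKM in BirA, 1.98 in Yap1_OE, 2.58 in ESC, 4.15 in Yap1_KO1, 5.46 in Yap1_KO2, 4.79 in the knockdown control and 6.08 in the knockdown. It was at 12.4 FPKM in differentiated control cells and 5.23 with the knockdown, the latter within the range of the undifferentiated libraries. The differentiated ratio was 0.423 (0.334 to 0.538), from about 92 against 317 fragments. In undifferentiated cells all 3 libraries with less Yap1 lay above their control, at 2.11 in Yap1_KO2 (1.49 to 3.04) and 1.27 in the knockdown (0.999 to 1.61). The undifferentiated controls themselves ranged from 2.58 to 4.79 FPKM, and Yap1_KO1 lay within that range.

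Bmf, which responds to loss of attachment, lay on the other side of its control from Bik in the differentiated knockdown and on the same side in the undifferentiated comparisons. It was at 10.6 FPKM in BirA and 4.21 in Yap1_OE, at 7.51, 12.2 and 10.5 in ESC and the libraries labelled Yap1_KO1 and Yap1_KO2, at 10.9 and 11.0 in the knockdown control and knockdown, and at 1.94 and 3.93 in the differentiated control and knockdown. Its 3 lowest values are those of the differentiated pair and Yap1_OE. The ratio was 2.02 in the differentiated knockdown (1.66 to 2.48) and 0.397 in Yap1_OE (0.351 to 0.447), and 1.63 and 1.40 in the libraries labelled Yap1_KO1 and Yap1_KO2. In the knockdown in ES cells it was 1.01 (0.925 to 1.10). Hrk, a BH3-only gene best known from neurons and singled out after its values were seen, was at 0.556 FPKM in differentiated control cells and 1.55 with the knockdown, and entered the count only through the knockdown library.

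Pmaip1, which encodes NOXA and neutralises MCL1, stood at 6.48 FPKM in BirA, 8.40 in Yap1_OE, 6.81 in ESC, 14.1 in Yap1_KO1, 13.7 in Yap1_KO2, 8.57 in the knockdown control and 7.45 in the knockdown. Both differentiated libraries were higher still, at 18.97 FPKM in the control and 20.01 in the knockdown, a ratio of 1.06 (0.957 to 1.16). Bcl2l11, which encodes BIM, was at 6.39 and 7.72 FPKM in BirA and Yap1_OE, 5.98, 4.29 and 5.92 in ESC and the libraries labelled Yap1_KO1 and Yap1_KO2, and 5.68 and 5.67 in the knockdown control and knockdown. In differentiated cells it was at 16.9 FPKM in the control and 12.7 in the knockdown, a ratio of 0.750 (0.690 to 0.816). The remaining BH3-only genes, Bid, Bad and Bbc3, lay between 0.956 and 1.17 times their control in the differentiated knockdown.

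The receptor genes lay on 1 side of the control in differentiated knockdown cells. Tnfrsf10b, the mouse receptor for the death ligand TRAIL, was at 11.3 FPKM in BirA, 11.1 in Yap1_OE, 7.53 in ESC, 8.31 in Yap1_KO1, 8.62 in Yap1_KO2, 10.5 in the knockdown control and 9.81 in the knockdown. In differentiated cells it was at 22.7 FPKM in the control and 13.3 with the knockdown, a ratio of 0.585 (0.529 to 0.646). Both exceed all undifferentiated libraries. Ripk1, the kinase that sits at the branch between survival and death signalling, was at 2.79 FPKM in BirA, 4.07 in Yap1_OE, 3.49 in ESC, 2.92 in Yap1_KO1, 4.22 in Yap1_KO2, 1.40 in the knockdown control and 1.21 in the knockdown. In differentiated cells it was at 4.36 and 3.09, a ratio of 0.708 (0.608 to 0.821). The differentiated control was 3.12 times the knockdown control, the lowest undifferentiated control, while ESC stood at 3.49 FPKM. Its exons overlap other annotated genes.

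Of the other receptor genes, the TNF receptor Tnfrsf1a, its adaptor Tradd and the caspase-8 adaptor Fadd were singled out after their values were seen. Tradd was at 6.93 FPKM in differentiated control cells and 3.03 with the knockdown, a ratio of 0.436 (0.327 to 0.576), against 3.15 to 4.58 FPKM undifferentiated. Tnfrsf1a was at 6.51 and 3.84 FPKM, a ratio of 0.590 (0.469 to 0.742). Fadd was at 5.40 and 3.56, a ratio of 0.659 (0.550 to 0.786). The 5 genes had a median log2 ratio of -0.63 in the differentiated knockdown and 0.83 in the differentiated against the undifferentiated control. Those comparisons share the differentiated control library, so a high or low value in it enters both with opposite sign. In the knockdown in ES cells the same 5 genes had a median of -0.070, with 2 higher and 3 lower. In Yap1_OE against BirA their median was -0.015, also with 2 higher and 3 lower. Tnfrsf1a and Tradd were among the lower ones there, at ratios of 0.545 (0.429 to 0.691) and 0.7525 (0.576 to 0.972). Fas, the founding death receptor, stayed under 1 FPKM in every library and was listed at 0 in both knockout-labelled ones.

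Casp8, the initiator caspase of the receptor pathway, was at 1.38 and 2.03 FPKM in BirA and Yap1_OE, 1.64, 1.28 and 1.81 in ESC and the libraries labelled Yap1_KO1 and Yap1_KO2, 1.95 and 1.55 in the knockdown control and knockdown, and 5.76 and 3.66 in the differentiated pair. The last 2 are the highest, with a ratio of 0.634 (0.509 to 0.784). Cflar, its inhibitor, was at 1.30 and 2.20 FPKM in BirA and Yap1_OE, 1.47, 1.15 and 1.30 in ESC and the libraries labelled Yap1_KO1 and Yap1_KO2, 1.30 and 1.04 in the knockdown control and knockdown, and 4.25 and 2.51 in the differentiated pair. Its ratio was 0.589 in the differentiated knockdown (0.5002 to 0.690) and 1.69 in Yap1_OE (1.37 to 2.10). The initiator and its inhibitor were thus lower together in the differentiated knockdown.

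Among the IAPs, Birc3 (cIAP2) was at 1.70 and 2.08 FPKM in BirA and Yap1_OE, 1.51, 1.37 and 1.34 in ESC and the libraries labelled Yap1_KO1 and Yap1_KO2, 1.59 and 1.28 in the knockdown control and knockdown, and 4.44 and 2.08 in the differentiated pair, a ratio of 0.468 (0.358 to 0.604). Its relative Birc2 (cIAP1) was at 13.1 and 11.7 FPKM in BirA and Yap1_OE, 10.9, 13.6 and 14.3 in ESC and the libraries labelled Yap1_KO1 and Yap1_KO2, 18.6 and 19.6 in the knockdown control and knockdown, and 8.37 and 9.21 in the differentiated pair. The 2 cIAP genes thus had opposite orders with differentiation, Birc3 higher and Birc2 lower in the control cells. Xiap, which binds caspases directly, was at 8.52 and 7.97 FPKM in the differentiated pair, a ratio of 0.936 (0.852 to 1.03).

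The other caspases and the mitochondrial proteins lay on both sides of the control. Casp2, Casp6 and Casp9 had ratios of 1.28, 0.975 and 0.931 in the differentiated knockdown, Apaf1, the scaffold of the apoptosome, 0.732 (0.672 to 0.799), and the mitochondrial proteins Aifm1, Diablo and Endog 0.994, 1.10 and 1.31. Htra2, a protease released from mitochondria and singled out after its values were seen, was at 17.0 FPKM in the control and 9.62 in the knockdown, a ratio of 0.565 (0.494 to 0.643). Its exons overlap other genes on the opposite strand. Casp12 was listed at 0 or at a single fragment, and Cycs stayed under 1 FPKM. Cycs has near-identical copies in the genome, and whether its reads were split among them was not tested.

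Anti-apoptotic and pro-apoptotic BCL2 members were then set against each other. In the differentiated knockdown the 4 anti-apoptotic members had a median log2 ratio of -0.15 with 3 lower, and the 11 pro-apoptotic ones 0.070 with 5 lower. With IAPs and FLIP added, the anti-apoptotic median was -0.18 (6 of 8 lower). With caspases, receptors and mitochondrial proteins added, the pro-apoptotic median was -0.048 (13 of 22 lower). Both pro-apoptotic classes include Hrk, which passed the filter only through the knockdown library, where it was higher. At a filter of 5 FPKM, which leaves out Hrk and Bmf, the pro-apoptotic BCL2 median was -0.063. All 4 medians at the 1 FPKM filter stand beside -0.011 over all genes, and the classes overlap widely.

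**Figure D3:**
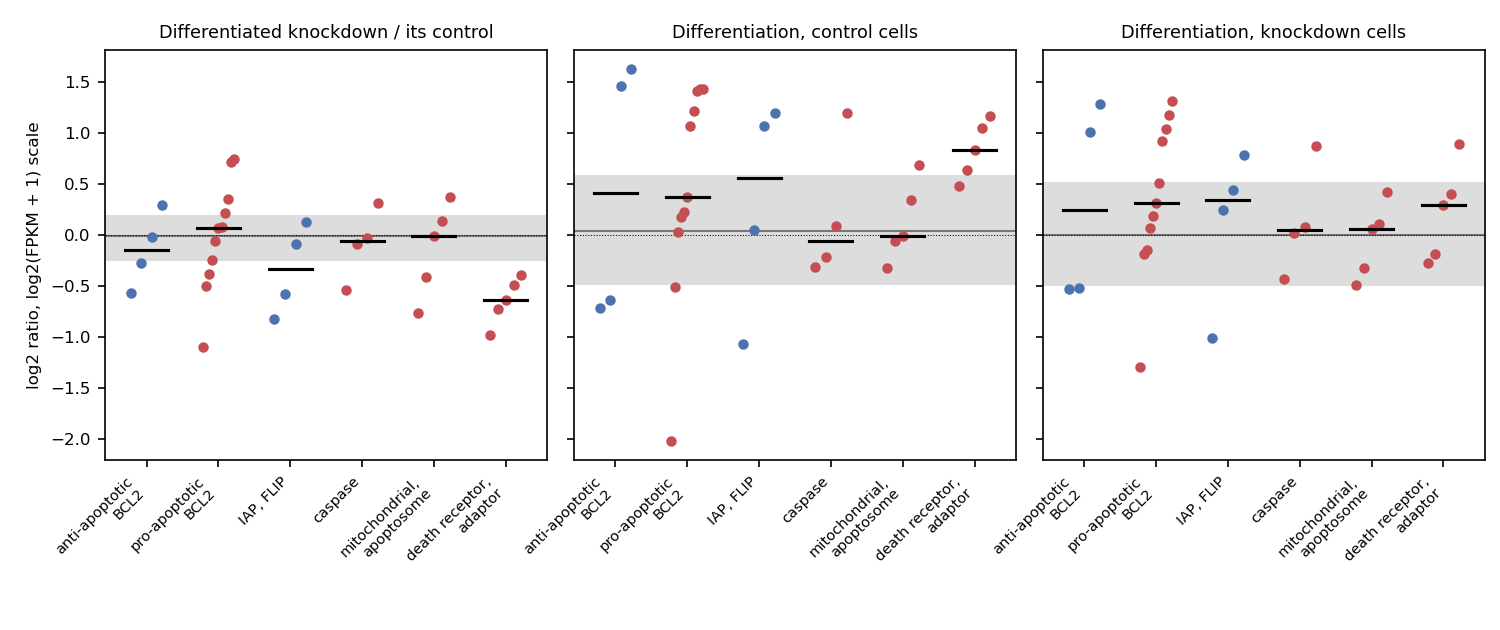
Log2 ratio, on the log2(FPKM + 1) scale, of the members tested (points) by role in the differentiated knockdown against its control and in differentiation of control and of knockdown cells, with anti-apoptotic BCL2, IAP and FLIP members in blue, the other roles in red and medians as black bars. The grey band and line give the quartiles and the median of all genes tested, and in the differentiated knockdown the medians are -0.15 for anti-apoptotic BCL2, 0.070 for pro-apoptotic BCL2 and -0.63 for the receptors and adaptors.

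Summed over members, pro-apoptotic BCL2 RNA exceeded anti-apoptotic BCL2 RNA in every library. FPKM is per length, so levels of different genes can be added. The sums were 570.5 against 151.5 FPKM in the differentiated control, a quotient of 3.77, and 626.4 against 136.3 in the differentiated knockdown, a quotient of 4.60. Undifferentiated libraries had quotients of 2.70 in BirA and 2.58 in Yap1_OE, 3.36, 3.08 and 3.09 in ESC and the libraries labelled Yap1_KO1 and Yap1_KO2, and 2.48 and 2.99 in the knockdown control and knockdown. Both knockdown libraries were thus above their control, and the knockout-labelled libraries below theirs. The undifferentiated controls spanned 2.48 to 3.36, about as far apart as the differentiated pair. Bax made up 55.0% to 70.0% of the pro-apoptotic sum and Mcl1 69.0% to 89.7% of the anti-apoptotic one. Without these genes, which were left out after the data were seen, the quotient was 5.47 in differentiated control cells and 6.76 with the knockdown, and 7.51 and 7.66 in the undifferentiated pair. It was then 6.95 and 7.34 in the libraries labelled Yap1_KO1 and Yap1_KO2 against 5.71 in ESC, the reverse of their order over all members, and 4.73 in Yap1_OE against 7.09 in BirA. The BH3-only sum was 126.8 FPKM in differentiated control cells and 123.8 with the knockdown.

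**Figure D4:**
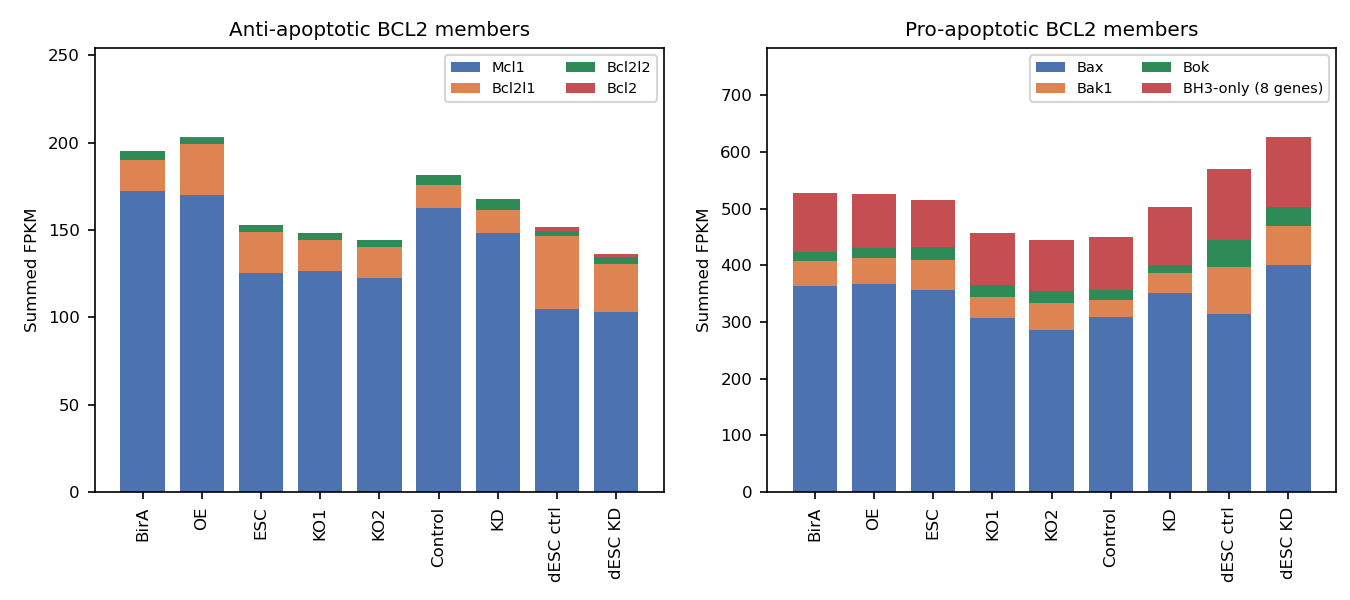
Summed FPKM of the 4 anti-apoptotic (left) and 11 pro-apoptotic (right) BCL2 members in each of the 9 libraries, stacked by gene with the 8 BH3-only genes together, 1 value per library with no error. Mcl1 fills most of each left bar and Bax most of each right bar, and the right bar is tallest in the differentiated knockdown (626.4 FPKM).

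Differentiation itself was compared in control and in knockdown cells, 2 comparisons that share no library. In control cells 12 of 33 members (36.4%) were at least 2-fold higher against 13.1% of all genes, and 2 were lower (Bmf and Birc2) against 10.1%. The 12 were Bcl2, Bcl2l1, Bak1, Bok, Bik, Pmaip1, Bcl2l11, Casp8, Birc3, Cflar, Tnfrsf10b and Ripk1. Bcl2 passed the filter only through the differentiated library and so had to differ. In knockdown cells 5 were at least 2-fold higher (Bcl2, Bcl2l1, Bok, Pmaip1 and Bcl2l11) against 10.3% of all genes, and again Bmf and Birc2 were lower, against 10.4%. Here too Bcl2 passed the filter only through the differentiated library. All 5 genes higher in knockdown cells, Bcl2 included, are among the 12, which is 5 of 5 of the shorter list and 41.7% of the longer. Over all genes the shares were 70.7% and 55.0%, from 893 shared genes.

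The 12 were picked by their ratio in control cells, so lower ratios in knockdown cells are partly built in. On the log2(FPKM + 1) scale, Pmaip1 alone of the 12 was higher in knockdown than in control cells. For 3 of the 12 the ratios were as follows, with Bcl2l1 and Bik lower and Pmaip1 higher in knockdown than in control cells. Bcl2l1 was 3.24 times its undifferentiated level in control cells (2.98 to 3.53) and 2.09 times in knockdown cells (1.88 to 2.31). Bik was at 2.58 times in control cells (2.10 to 3.16) and 0.861 times in knockdown cells (0.658 to 1.13). Pmaip1 was at 2.21 times in control cells (1.99 to 2.46) and 2.68 times in knockdown cells (2.36 to 3.05). The median log2 ratio over members was 0.37 in control cells and 0.19 in knockdown cells, beside 0.040 and 0.0035 over all genes. In control cells the anti-apoptotic BCL2 class had a median of 0.41 (2 of 4 higher) and the pro-apoptotic class 0.37 (9 of 11 higher). The anti-apoptotic class includes Bcl2, which passed the filter only through the differentiated library, where it was higher. The pro-apoptotic class includes Hrk, which passed only through the undifferentiated one. A filter at 5 FPKM leaves out both genes, and the anti-apoptotic median is then negative. With ESC as the undifferentiated control the medians were 0.29 and 0.82, with BirA 0.33 and 0.11, with a GC trend removed 0.38 and 0.14, and over members at 5 FPKM or more -0.63 and 0.71, so which class was higher depended on these choices. In both differentiated libraries 10 members lay above all 7 undifferentiated ones (21% of all genes did) and 4 lay below them (18.9% did). The 10 were Bcl2, Bak1, Bok, Bbc3, Pmaip1, Bcl2l11, Casp8, Apaf1, Cflar and Tnfrsf10b, and the 4 were Mcl1, Bmf, Aifm1 and Birc2.

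Differentiation markers and immediate-early genes moved with these values. Summed differentiation markers were 1436 FPKM in differentiated control cells and 209 with the knockdown (10 of 12 genes lower). Most of both sums came from Krt8 (486 and 65.2 FPKM) and Krt18 (832 and 102 FPKM). Over the 8 markers tested, the median log2 ratio was -1.53. Immediate-early and heat shock genes summed to 140 and 65.0 FPKM (7 of 7 lower), where the undifferentiated range was 44.0 to 70.0. The part of either in the lower receptor, Bcl2l1 and Bik values of the differentiated knockdown was not tested. In bulk RNA, fewer cells of a type and less RNA per cell cannot be told apart.

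In undifferentiated cells few members were 2-fold from a control. Yap1_OE had 1 lower member, Bmf, and 0 higher, of 32 tested, where 2.35% of all genes were lower and 1.60% higher. The knockdown had 0 of 32 in either direction, where 0.506% of genes were higher and 0.506% lower. The knockout-labelled libraries had 0 of 32 at least 2-fold from ESC in both on that scale, where 0.191% of genes were higher and 0.979% lower. Between the 3 undifferentiated controls 1 of 32 members, the p53 target Bbc3 (PUMA), was at least 2-fold apart, at 13.3 FPKM in ESC and 24.8 and 29.9 in the others, against 5.93% of all genes.

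The 2 knockout-labelled libraries were tested against ESC with limma. It passed 0 of 32 members at an adjusted p under 0.05, where 0.173% of all genes passed. At an unadjusted p under 0.05, 8 of 32 passed against 23.1% of all genes. Pmaip1 had FPKM ratios of 2.07 and 2.01, which the pseudocount takes just under 2-fold, and a log2 difference of 0.93 (SE 0.12, n = 2 against 1) with a limma adjusted p of 0.15, and was higher in both libraries. Xiap had 0.68 (SE 0.14, limma adjusted p = 0.151), with 6.62 FPKM in ESC and 11.9 and 10.6 in the labelled libraries. Bcl2l1 had -0.42 (SE 0.11, limma adjusted p = 0.17). None of these reached the threshold. In the knockdown in ES cells Pmaip1 had a ratio of 0.869 (0.759 to 0.996) and Xiap 0.802 (0.734 to 0.878), and the difference between the arms was not tested.

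A joint limma fit of the knockout-labelled and knockdown arms passed 0 of 32 members, where 0.0165% of all genes passed. Yap1 itself did not pass the joint fit, at a log2 difference of -1.60 (SE 0.505, limma adjusted p = 0.71). The 0 therefore says little about the members. In the fit of the knockout-labelled libraries alone the log2 difference of Yap1 was -0.70. At an unadjusted p under 0.05 the joint fit passed 2 of 32, Bik and Casp6, against 6.75% of all genes. Bik had a log2 difference of 0.52 (SE 0.18, limma adjusted p = 0.714). Casp6, an executioner caspase, had 0.43 (SE 0.17, limma adjusted p = 0.733). Both were higher in 3 of 3 libraries.

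Members were also sorted by direction alone, which needs no threshold. Higher in the mean of the knockout-labelled libraries, the knockdown and the differentiated knockdown and lower in Yap1_OE were 4 of 32, Bcl2l2, Bmf, Casp2 and Birc2, where 8.14% of all genes did so. Lower in the loss comparisons and higher in Yap1_OE were 5 of 32, Bok, Bcl2l11, Casp8, Birc3 and Cflar, against 8.70% of genes. The first set holds anti-apoptotic as well as pro-apoptotic genes, and so does the second. Bcl2l11 had nearly the same level in the knockdown in ES cells and its control (5.67 against 5.68 FPKM).

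Other genes of the pathway, from a list of 45 of which 41 were in the table, gave 1 gene at least 2-fold higher and 0 lower of 27 tested in the differentiated knockdown, with a median log2 ratio of -0.073. Of all genes 1.71% were higher and 4.77% lower. The 1 gene higher was Bnip3, a mitophagy gene induced by low oxygen, at 6.58 FPKM against 2.42. Its undifferentiated controls ran from 7.16 FPKM in ESC to 55.1 in the knockdown control. In the other comparisons the list gave 0 higher and 2 lower of 27 in Yap1_OE, 0 of 29 in the knockdown, 0 of 27 in both knockout-labelled libraries, and 2 higher and 4 lower of 29 with differentiation of control cells. Of all genes 1.60% were higher and 2.35% lower in Yap1_OE, and 13.1% and 10.1% with differentiation of control cells. The shares were 0.506% each way in the knockdown, and 0.191% higher and 0.979% lower in both knockout-labelled libraries.

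Of 15 genes of the p53 pathway outside the set, 2 were at least 2-fold lower in the differentiated knockdown and 0 higher, with a median log2 ratio of -0.10. Over all genes 4.77% were lower and 1.71% higher. The 2 genes were Perp, a membrane protein of cell junctions and apoptosis, at 20.5 FPKM against 55.7, and the kinase gene Plk2 at 27.9 against 74.1. In Yap1_OE both lay above BirA, Perp at 19.01 against 5.77 and Plk2 at 28.1 against 10.6. In the other comparisons the list gave 3 higher and 0 lower of 15 in Yap1_OE, 0 in the knockdown and in both knockout-labelled libraries, and 5 higher and 1 lower with differentiation of control cells. Over all genes 1.60% were higher and 2.35% lower in Yap1_OE, and 13.1% and 10.1% with differentiation of control cells. The shares were 0.506% each way in the knockdown, and 0.191% higher and 0.979% lower in both knockout-labelled libraries. Trp53 itself was at 232 and 236 FPKM in the differentiated knockdown and control.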

How the data were processed

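The authors deposited FPKM values per gene in 1 table. TopHat2, Cuffdiff and the genome build mm9 are named in the submitters' processing notes, while the sources used here give no versions, annotation or strandedness. Cuffdiff estimates values by likelihood and scales libraries, so a 0 can be a failed estimate. Of 23277 rows, 4746 were blank and 27 carried dates in place of symbols, which left 18504 genes. Columns were matched to samples by title.

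Depth was recovered from the FPKM steps of low genes (modal ratios between libraries, scaled over 160 genes with quartiles of 11.8 to 14.8 M fragments for BirA), and fragments were estimated from FPKM, depth and the longest GENCODE vM21 transcript (GRCm38). Cuffdiff's scaling may be part of these depths. Ratios of single genes are ratios of FPKM with 95% exact binomial intervals. Log2 ratios and counts took genes that reached 1 FPKM in a library compared, on the log2(FPKM + 1) scale, which understates low genes. The fits were made in limma (3.58.1, under R 4.3.3) with its trend option, and p-values were adjusted by Benjamini-Hochberg over all genes at 0.05, with 1 residual degree of freedom for the knockout-labelled libraries and 2 for the joint fit with an arm term. Each lone control is taken to vary like the knockout-labelled pair, and a p-value reflects only the spread of these libraries, possibly a technical one.

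The list of members was taken as given, by symbol, and it and the other lists were drawn up with earlier results of these data known. All 9 values are printed for members at least 2-fold from a control in a perturbation or with differentiation of control cells, and for the anti-apoptotic BCL2 class. From the lists of other apoptosis genes and of p53 targets, the genes named are those 2-fold apart in the differentiated knockdown at 5 FPKM or more. Exons of 11 of the 36 members overlap another gene in GENCODE (4 on the same strand, for Bcl2l2, Bax, Diablo and Ripk1), and their values are uncertain.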

Additional observations from a re-analysis of the deposited data

Results flagged for a closer look

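Bik had opposite directions in undifferentiated and differentiated cells when Yap1 was reduced. All 3 undifferentiated libraries with a knockout or knockdown label lay above their control, and the differentiated knockdown lay below its own. The undifferentiated controls alone spanned a log2 range of 0.69 (2.58 to 4.79 FPKM), which holds Yap1_KO1 at 4.15. The interval of the knockdown in ES cells included 1 (0.999 to 1.61). The log2 ratio in the differentiated knockdown minus the mean of the other 3 was -1.65. There is 1 differentiated pair, so this difference was not tested.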

How the results depend on the processing

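Of 164 values of named genes recomputed, 164 kept their direction and 35 moved by the SD between the knockout-labelled pair or more. A change of pseudocount or filter cannot turn the direction of a single gene, so only scaling, GC removal or another control could have. Under every alternative, 0 members passed limma. The lowest limma adjusted p over members ran from 0.0564 to 0.227 for the knockout-labelled libraries and from 0.524 to 1.0 for the joint fit. For members at least 2-fold apart, a pseudocount of 0.1 gave 4 in the differentiated knockdown, and one of 5 gave 0 there, 0 in Yap1_OE, 5 with differentiation of control cells and 1 of knockdown cells. At 1.5-fold the counts were 3 in Yap1_OE, 2 for the knockout-labelled libraries, 8 in the differentiated knockdown and 11 with differentiation of knockdown cells. Removing a GC trend gave 4 for the last of these. ESC as control gave 0 for Yap1_OE and 3 for the knockdown. In the differentiated knockdown the anti-apoptotic BCL2 median was -0.22 and -0.068 with pseudocounts of 0.1 and 5, and -0.30 at a filter of 5 FPKM, where the pro-apoptotic BCL2 median turned to -0.063. At that filter the anti-apoptotic medians, narrow and broad, turned to -0.63 with differentiation of control cells and -0.52 of knockdown cells. The filter leaves fewer members and takes out Bcl2 and Hrk, and the cause of the other shifts was not tested. The summed pro- over anti-apoptotic quotient of the differentiated knockdown relative to its control was 1.22, and 1.24 without Bax and Mcl1. The fit of the knockout-labelled libraries without replicate 1 or 2 had no residual degrees of freedom and was not run. No analysis paired by replicate number was possible because the groups compared share fewer than 2 replicate numbers. Only the arm term of the joint fit set libraries against the control of their own arm. Depth limits genes under about 1 FPKM, such as Bcl2 in undifferentiated cells.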
